A study of Mus musculus with 18 samples.

Results

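The respiratory chain is built from 2 genomes, and its subunits were read here as 1 set of genes across 6 culture conditions of mouse lung cells. Members were protein-coding genes with a mouse symbol starting with mt-Nd, mt-Co, mt-Cytb, mt-Atp, Ndufa, Ndufb, Ndufc, Ndufs, Ndufv, Uqcr, Cox4 to Cox8 or Atp5, plus Sdha, Sdhb, Sdhc, Sdhd and Cyc1. A member also needed a count of at least 10 in at least 3 libraries. Of 52636 genes in the deposited tables, 107 had such a symbol and 101 met the count limit, of which 90 were nuclear and 11 mitochondrially encoded (mt-). The whole series held 12824 protein-coding genes that met the same limit. The 90 nuclear members comprised 36 subunits of complex I, 4 of complex II, 9 of complex III, 17 of complex IV, 16 of complex V and 8 Ndufaf genes. The Ndufaf genes share the Ndufa prefix but encode assembly factors of complex I, so they are given separately. The 11 mt- members comprised 5 subunits of complex I, 1 of complex III, 3 of complex IV and 2 of complex V. The 6 genes below the limit were mt-Nd3, mt-Nd4l and Atp5l, with 51, 27 and 65 counts over all 18 libraries, and Cox7b2, Cox8b and Cox8c, with 0.

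The cells are labelled alveolar type 2, the surfactant-producing cells of the lung's air sacs. They had been in culture for 19 days with a Wnt agonist, spelled CHIR99201 in the labels. LGK974, a porcupine inhibitor that blocks secretion of the cells' own Wnt ligands, is listed in every group. In the FZD5 agonist, FZD6 agonist and WNT groups, CHIR99201 was replaced by an agonist of the Wnt receptor Fzd5, by an agonist of Fzd6 or by Wnt. The CHIR group kept CHIR99201, and in the 24 h and 48 h withdrawal groups it was taken away for that time. Treatments lasted 8 to 12 h per the labels, which do not say how long the ligand groups had been without CHIR99201. Each group had 3 libraries of total RNA. Nothing in the labels says whether these came from separate cultures or animals, so the spread behind every p-value is that of these libraries alone and may be technical. The labels name no sort or gate. All 10 alveolar type 2 markers listed exceeded 1 CPM in all 18 libraries, and Sftpc, which encodes surfactant protein C, took 3.95% to 13.05% of counts.

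Libraries held 31509607 to 52030066 counts in genes, so that 3 counts, taken as the detection floor, correspond to 0.0577 to 0.0952 CPM. CPM here are TMM-scaled by edgeR, and intervals from counts would cover counting error only. The 4 libraries 24 h withdrawal 2, CHIR 1, CHIR 3 and FZD6 agonist 1 stood apart, with median Pearson correlations to the other libraries of 0.782, 0.927, 0.945 and 0.950, against 0.966 to 0.982 in the remaining 14. A library stood apart if its median Pearson or Spearman correlation was under 0.96. FZD6 agonist 1 did so by Pearson only, with a Spearman median of 0.961. In the 4 that stood apart Sftpc took 9.11% to 13.05% of counts, against 3.95% to 5.63% in the remaining 14. The main test was edgeR's quasi-likelihood test over all 18 libraries, with Benjamini-Hochberg adjustment over 16497 genes and a threshold of 0.05, and a gene past it is called. Results are also given for the 6 libraries of the 2 groups compared and for the 14 libraries without these 4, which leave 1 CHIR, 2 FZD6 agonist and 2 24 h withdrawal libraries. In that last fit the lone CHIR library is assumed to vary like those of the other groups.

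In oxidative phosphorylation, complexes I and II pass electrons from NADH and succinate to ubiquinone, complex III passes them to cytochrome c, and complex IV passes them to oxygen. Complexes I, III and IV pump protons across the inner mitochondrial membrane, and complex V, the ATP synthase, makes ATP from the returning flow. Complexes I, III, IV and V combine subunits encoded in mitochondrial DNA with nuclear subunits that are made in the cytosol and imported, while all subunits of complex II are nuclear. Alveolar type 2 cells are rich in mitochondria, which supply the energy for surfactant synthesis.

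Levels of the mt- genes differed widely. Per kilobase of deposited gene width, averaged over the 14 libraries, mt-Cytb, the cytochrome b of complex III, had 2157 CPM and mt-Nd1, a core subunit of complex I, had 1397 CPM. The catalytic subunit of complex IV, mt-Co1, had 361 CPM per kilobase, and the lowest mt- member of complex I, mt-Nd2, had 156. The other catalytic subunit of complex IV, mt-Co2, had 0.863 CPM per kilobase. The ATP synthase genes mt-Atp6 and mt-Atp8 had 2.82 and 1.16 CPM per kilobase. Mitochondrial rRNA, which is transcribed from the same DNA, made up 0.000206% to 0.00301% of counts.

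Of the low mt- genes, mt-Co2, mt-Co3 and mt-Atp6 had near-identical nuclear copies. For mt-Atp8 the search described in the next paragraph, which covered annotated transcripts only, found none. On GRCm38, the interval 24611535 to 24616197 of chromosome 1 holds annotated copies of 7 mt- genes on the minus strand. On mitochondrial DNA mt-Atp8 lies between mt-Co2 and mt-Atp6, overlapping the latter. The sequence between the copies of mt-Co2 and mt-Atp6 on chromosome 1 was not searched, so a copy of mt-Atp8 there would have been missed. The start of mt-Co2 (chrM:7013-7132, plus strand) and of its copy Gm28661 (chr1:24615446-24615565, minus strand) are shown because they do not differ, so that a read from either fits both. The start of mt-Nd3 (chrM:9459-9518, plus strand) and of its copy Gm28438 (chr1:24613060-24613119, minus strand) are shown for the single base that tells them apart, in capitals (T3C, counted from the first base of mt-Nd3, with the mt- base first).
mt-Co2: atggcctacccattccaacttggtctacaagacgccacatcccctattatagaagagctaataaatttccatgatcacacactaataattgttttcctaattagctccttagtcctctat
Gm28661: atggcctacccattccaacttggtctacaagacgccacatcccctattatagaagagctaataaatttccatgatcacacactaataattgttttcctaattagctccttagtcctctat
mt-Nd3: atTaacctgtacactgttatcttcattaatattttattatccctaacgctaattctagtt
Gm28438: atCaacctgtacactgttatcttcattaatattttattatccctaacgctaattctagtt
Over the whole copy, mt-Co2 and Gm28661 aligned over 681 bases with 0 differences, and their counts over all libraries were 887 and 502. For mt-Atp6, 678 bases of Gm10925 aligned with 0 differences (2121 and 970 counts), and for mt-Co3, 783 bases of Gm28437 with 0 differences (983 and 748 counts). For mt-Nd3, 345 bases aligned with 1 difference (51 and 34 counts), and for mt-Nd4l, 294 bases of Gm10222 with 0 (27 and 25 counts). How reads that fit several places were counted is not given in the sources used here, so the levels of these 5 genes are uncertain. The level of mt-Atp8 is uncertain too, since an unannotated copy was not searched for.

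Shared sequence was measured as the share of a gene's 50-base windows also present in another annotated transcript. Of the 13 mt- genes, the 5 with over 90% of windows shared had 0.140 to 4.77 CPM per kilobase, averaged over 18 libraries. The 2 with 50% to 90% shared, mt-Nd4 at 62.2% and mt-Co1 at 51.1%, had 367 and 469. Their levels are also uncertain, since reads from the shared parts fit several places. The 4 that shared no window ranged from 2.46 for mt-Atp8 to 2707 for mt-Cytb. Among nuclear members and the genes below the limit, 56 shared no window and had a median of 148 CPM per kilobase, and 37 shared up to 50% and had a median of 65.6. The shares were highest for Atp5l (68.5%), Uqcrb (43.2%), Ndufb4 (37.0%), Atp5h (36.9%) and Atp5g2 (36.7%), whose levels are uncertain for the same reason. Atp5g1 shared 11.1% of its windows, and its closest copy Gm10039 had 18702 counts over all libraries, against 11968 for Atp5g1. The level of Atp5g1 is therefore uncertain too.

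**Figure D1:**
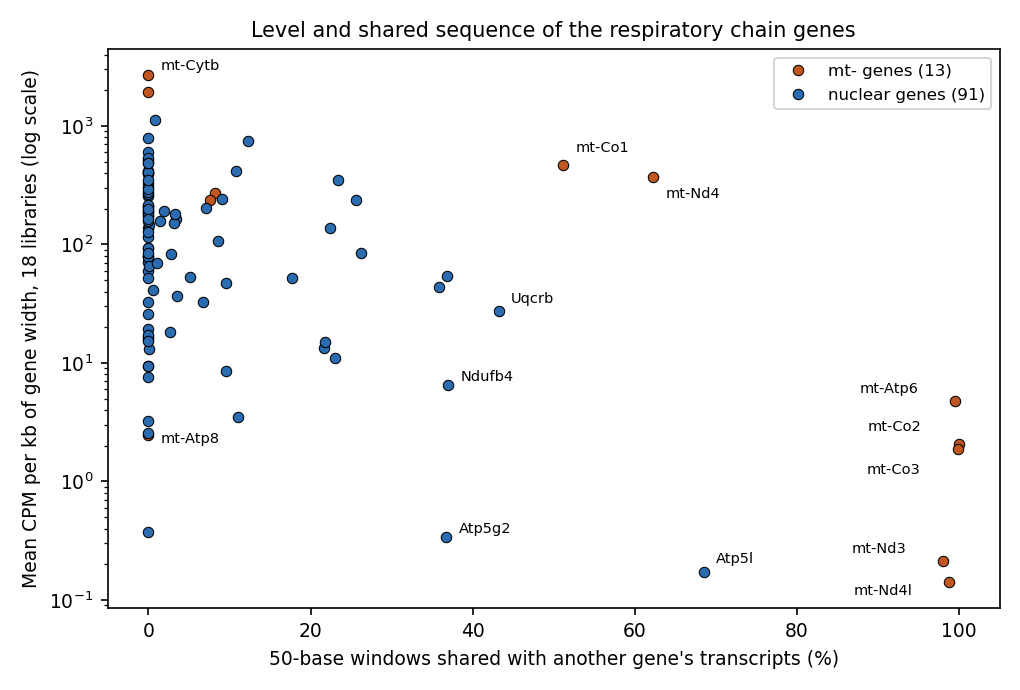
Mean CPM per kilobase over 18 libraries (log axis) against the percentage of 50-base windows found in another annotated transcript, 1 point per gene above 0 CPM, with mt- and nuclear genes in different colours. The 5 mt- genes above 90% sit between 0.140 and 4.77 CPM per kilobase, and mt-Cytb and mt-Nd1, which share no window, are the highest mt- genes.

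Levels of nuclear members differed within each complex, per kilobase and averaged over the 14 libraries. In complex V, Atp5b, the catalytic beta subunit, had 1070 CPM per kilobase, the highest nuclear value, and Atp5g2, 1 of 3 genes for the membrane ring subunit c, had 0.358. The other subunit c genes Atp5g3 and Atp5g1 had 464 and 2.31. In complex IV, Cox4i1, the common form of subunit IV, had 662 CPM per kilobase, and Cox4i2, its alternative form in lung, had 2.90. The common form of subunit VIa, Cox6a1, had 622 and the heart and muscle form Cox6a2 had 1.97. Likewise Cox7a2 had 353 and the heart and muscle form Cox7a1 had 10.6. Cox6b1 had 351 and the testis form Cox6b2 had 3.51, and Ndufa4 had 266 and its relative Ndufa4l2 had 0.439, the lowest value of complex IV. In complex I, levels ran from 5.51 for Ndufb4 to 290 for Ndufb9, both accessory subunits, with a median of 85.5. In complex II, Sdhd, a membrane anchor, had 287 and the other anchor, Sdhc, had 63.2. In complex III, Cyc1, the cytochrome c1 subunit, had 334 and Uqcrb had 25.3. The assembly factors lay between 6.09 for Ndufaf4 and 24.7 for Ndufaf8.

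The 2 genomes did not move in step across the groups. As a share of all gene counts, the 11 mt- members took 0.614% ± 0.0388 in FZD5 agonist, 0.391% ± 0.0376 in FZD6 agonist, 0.519% ± 0.120 in WNT, 0.499% ± 0.223 in CHIR, 1.67% ± 2.12 in 24 h withdrawal and 0.591% ± 0.0374 in 48 h withdrawal (SD, n = 3 each). The 24 h mean rests on 24 h withdrawal 2, where the share was 4.12%, against 0.444% and 0.457% in the other libraries of that group. In that library Malat1, Neat1 and Gm26917, non-coding RNAs, took 10.8% of gene counts, against at most 0.583% in the others. There 31.3% of the authors' library total lay outside the gene counts (at most 15.5% in the others), and 16846 genes had a count (at least 19224 in the others). The part of these differences in the mt- share was not tested. The 90 nuclear members took 1.29% ± 0.0772, 1.503% ± 0.295, 1.63% ± 0.106, 2.13% ± 0.444, 2.12% ± 0.767 and 1.51% ± 0.0221 of counts in the same order of groups. Without the libraries that stand apart, the nuclear share was 1.33% ± 0.00398 in FZD6 agonist (n = 2), 1.63% in the remaining CHIR library and 1.68% ± 0.0863 in 24 h withdrawal (n = 2). In bulk RNA, fewer cells of a type and less RNA per cell cannot be told apart.

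The ratio of mt- to nuclear counts was 0.475, 0.474 and 0.477 in the 3 FZD5 agonist libraries. It was 0.193, 0.291 and 0.322 in FZD6 agonist, 0.384, 0.303 and 0.263 in WNT, and 0.287, 0.312 and 0.120 in CHIR. It was 0.255, 1.37 and 0.282 in 24 h withdrawal, and 0.368, 0.405 and 0.404 in 48 h withdrawal. The FZD5 agonist libraries were above every other library except 24 h withdrawal 2. The FZD5 agonist ratio exceeded that of WNT by 0.60 on the log2 scale, that of 48 h withdrawal by 0.28 and that of FZD6 agonist by 0.86, or by 0.63 without FZD6 agonist 1. In each of these pairs the libraries did not overlap. The FZD6 agonist ratio differed from that of 48 h withdrawal by -0.58, or -0.36 without FZD6 agonist 1, again without overlap. The 48 h withdrawal ratio exceeded that of CHIR by 0.83, or by 0.33 against the 1 CHIR library that did not stand apart.

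**Figure D2:**
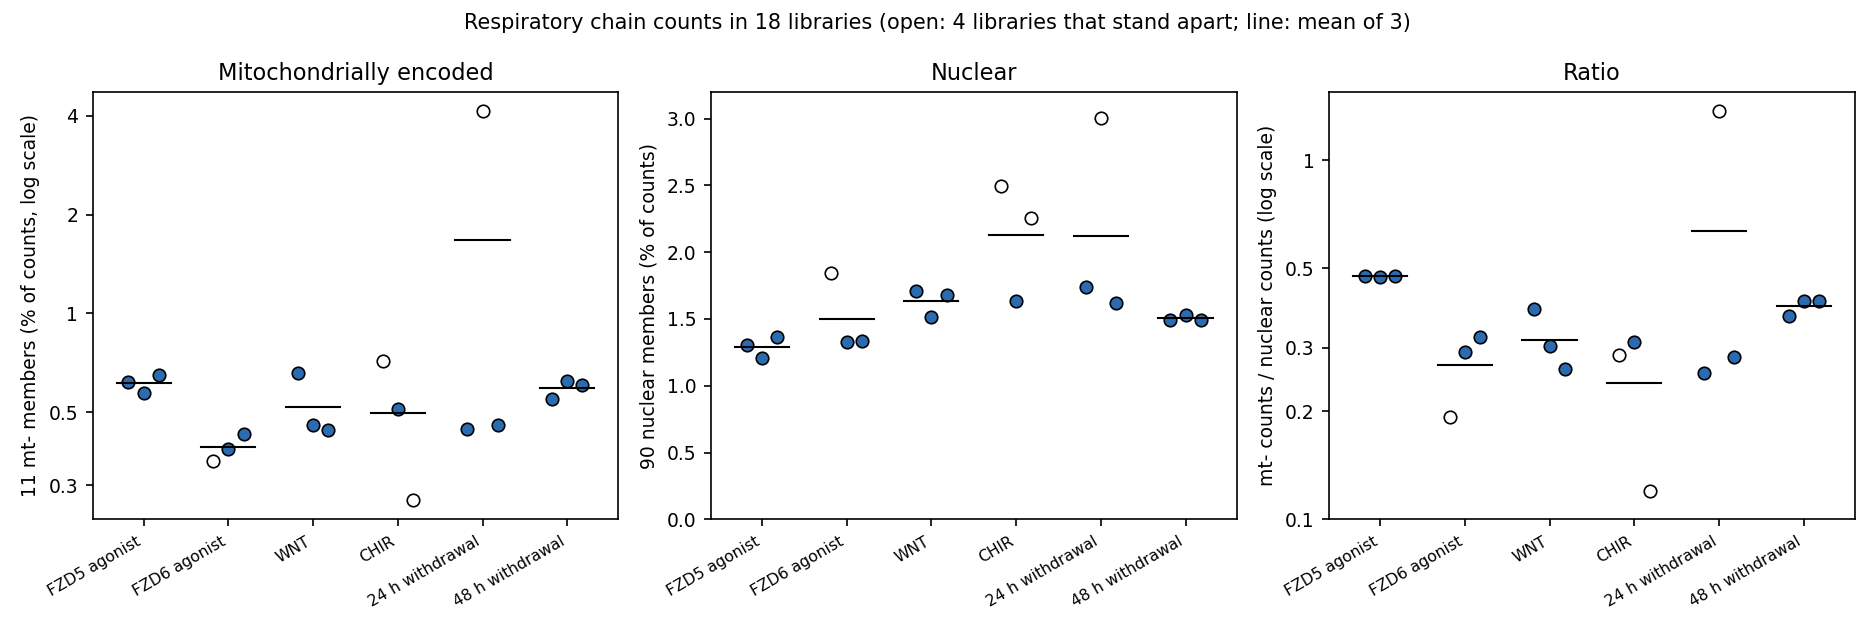
Percentage of gene counts in the 11 mt- members (log axis) and in the 90 nuclear members, and the ratio of the 2 (log axis), by group with 1 point per library. Open points are the 4 libraries that stand apart and lines are means of 3. The 3 FZD5 agonist libraries lie between 0.474 and 0.477 in the ratio, and 24 h withdrawal 2 is far above its group in mt- counts.

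Few members passed the test when all 18 libraries shared 1 estimate of the spread. None of the 101 was called in 10 of the 12 comparisons, where few genes were called at all. The share of all genes tested was 0% in 6 of these comparisons, 0.00606% in FZD5 agonist and in FZD6 agonist against CHIR, 0.0121% in FZD6 agonist against 48 h withdrawal, and 0.0485% in 48 h against 24 h withdrawal. Over the 6 groups together edgeR's F test called 0 members and 0.649% of genes, with the smallest adjusted p for Ndufaf6 (0.0719), mt-Co2 (0.0810) and mt-Nd6 (0.0879). Below an unadjusted p of 0.05 this F test held 36 nuclear and 8 mt- members, and 16.2% of genes. Among these mt- members, mt-Co2 had 17.8 CPM in 24 h withdrawal 2, against at most 1.07 in any other library. In the same library mt-Nd6 had 3149 CPM, against at most 165 in any other. DESeq2 called 9 members over the 6 groups and 1654 of 16497 genes. Limma-voom with quality weights, which lets libraries differ in their spread, called 77 members and 28.0% of genes. In the 14-library fit edgeR called 79 members over the 6 groups, where 29.3% of genes were called, led by Cox7a1, Cox7a2, Ndufa1 and Atp5g1.

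Nuclear members were lower in FZD5 agonist than in WNT. Fitted on these 6 libraries, 65 of 90 nuclear members fell and none rose, where 6.31% of the 15303 genes tested were called lower. The median log2 fold change was -0.42, a fold of 0.748, against 0.01 over all genes tested, and 88 of 90 values were negative. None of the 11 mt- members was called, and their median was 0.14. At an unadjusted p under 0.05 there were 80 nuclear and 0 mt- members, and 28.4% of genes. The CPM of the groups did not overlap for 81 nuclear members, all lower in FZD5 agonist, and for 1 mt- member, mt-Co3, also lower, while 15.6% of genes were lower without overlap. In the 18-library fit the nuclear median was -0.41, but 0 members were called, and 1 member and 2.50% of genes were below an unadjusted p of 0.05. There DESeq2 called 0 members and 0.206% of genes, and voom with quality weights 71 members and 21.3% of genes. The 14-library fit called 75 nuclear members lower, where 7.92% of genes were called lower.

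The fall was spread over all 5 complexes. Complex I had 28 of 36 subunits called lower, with a median log2 fold change of -0.39. Ndufa1, a small membrane-arm subunit needed for assembly, had 57.9, 50.7 and 58.6 CPM in FZD5 agonist, against 88.4, 80.7 and 88.1 CPM in WNT. Its log2 fold change was -0.63 ± 0.0852 (SE; edgeR adjusted p = 0.0023). Every FZD5 agonist library lay below every WNT library. Ndufb2, another accessory subunit, changed by -0.61 (adjusted p = 0.0034), and Ndufs1, the large iron-sulfur subunit of the matrix arm, by -0.19 without passing (adjusted p = 0.0935). Of the 8 assembly factors 3 were called lower, among them Ndufaf3 at -0.61.

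Complex II, which also works in the citric acid cycle, had 3 of 4 subunits called lower. Sdhb, its iron-sulfur subunit, had 191, 191 and 227 CPM in FZD5 agonist, against 306, 254 and 295 CPM in WNT. Its log2 fold change was -0.50 ± 0.0990 (SE; edgeR adjusted p = 0.0122), without overlap. The membrane anchors Sdhd and Sdhc changed by -0.38 and -0.35, and the flavoprotein Sdha had -0.20 and did not pass (adjusted p = 0.102).

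Complex III had 7 of 9 nuclear subunits called lower, with a median of -0.54. Cyc1 had 297, 299.6 and 337 CPM in FZD5 agonist, against 496, 407 and 463 CPM in WNT, a log2 fold change of -0.55 ± 0.0941 (SE; edgeR adjusted p = 0.0062). Uqcr10, a small accessory subunit, had 87.9, 80.7 and 116 CPM in FZD5 agonist, against 174, 153 and 165 CPM in WNT. Both genes separated the groups without overlap. Uqcr10 changed by -0.80, Uqcrq by -0.66 and Uqcr11 by -0.64. The mt- subunit of the same complex, mt-Cytb, had 2739, 2593 and 3032 CPM in FZD5 agonist, against 3162, 2218 and 2202 CPM in WNT, where the groups overlapped (log2 fold change 0.14, adjusted p = 0.591).

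Complex IV had 12 of 17 nuclear subunits called lower, with a median of -0.53. Cox7a1 had the largest change of all members, with 3.52, 3.95 and 4.41 CPM in FZD5 agonist, against 9.22, 8.50 and 9.11 CPM in WNT. Its log2 fold change was -1.18 ± 0.141 (SE; edgeR adjusted p = 0.0013). The more abundant form of the same subunit, Cox7a2, had 165, 171 and 198 CPM in FZD5 agonist, against 300.2, 277 and 323 CPM in WNT, and changed by -0.76 ± 0.0926 (adjusted p = 0.0014). Neither gene overlapped between the groups. Cox8a, the common form of subunit VIII, changed by -0.55 (adjusted p = 0.0034) and Cox4i1 by -0.50 (adjusted p = 0.0195). The low isoforms Cox4i2 and Cox6a2 had -0.50 and -0.07 and overlapped between the groups. Catalytic mt-Co1 had 643, 712 and 748 CPM in FZD5 agonist, against 663, 527 and 327 CPM in WNT, and overlapped.

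Complex V had 12 of 16 subunits called lower, with a median of -0.46. Atp5g1, whose level is uncertain because of its copy Gm10039, had 7.45, 6.55 and 8.59 CPM in FZD5 agonist, against 13.6, 13.5 and 13.8 CPM in WNT. Its log2 fold change was -0.87 ± 0.130 (SE; edgeR adjusted p = 0.0037), without overlap. Atp5mpl, a small subunit of the membrane part, changed by -0.59 (adjusted p = 0.0034). Atp5b had 1717, 1775 and 1880 CPM in FZD5 agonist, against 2243, 1961 and 2158 CPM in WNT. Its values did not overlap, but its change of -0.25 did not pass (adjusted p = 0.101).

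Nuclear members were also lower in FZD5 agonist than in 48 h withdrawal, a comparison that shares the FZD5 agonist libraries. Fitted on these 6 libraries, 46 of 90 nuclear members fell and none rose, where 6.13% of 15031 genes were called lower. The nuclear median log2 fold change was -0.30, and the 10 mt- members tested had a median of -0.03 with none called. At an unadjusted p under 0.05 there were 67 nuclear and 0 mt- members, and 28.5% of genes. By complex, the calls were 17 of 36 in complex I, 1 of 4 in complex II, 7 of 9 in complex III, 11 of 17 in complex IV and 9 of 16 in complex V. Ndufa1 changed by -0.53 ± 0.0833 (SE; edgeR adjusted p = 0.0040), with 80.3, 84.7 and 75.8 CPM in 48 h withdrawal, all above the FZD5 agonist libraries. Cox6c, a subunit of complex IV, changed by -0.45 (adjusted p = 0.0048) and Cox7a2 by -0.52 (adjusted p = 0.0056). The 18-library fit called 0 members, with 1 member and 2.38% of genes at an unadjusted p under 0.05. DESeq2 called 0 members and 0.206% of genes, and voom with quality weights 42 members and 20.5% of genes. The 14-library fit called 54 nuclear members lower, where 6.84% of genes were. The CPM did not overlap for 72 nuclear members lower in FZD5 agonist (15.6% of genes) and 2 higher (16.8% of genes).

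WNT and 48 h withdrawal gave no member call in any of the 3 edgeR fits, in DESeq2 or in voom, and 0% of genes were called in each edgeR fit. In the fit on these 6 libraries 86 of the 89 nuclear members tested were above 0 on the log2 scale, with a median of 0.15, and 33 had an unadjusted p under 0.05, as did 10.2% of genes. The 11 mt- members had a median of -0.16. The CPM of 31 nuclear members were higher in WNT without overlap, while 7.42% of genes were.

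In FZD6 agonist both nuclear and mt- members were lower than in WNT, as far as the 2 libraries that did not stand apart show. Against WNT in the 14-library fit, 60 nuclear and 4 mt- members were lower and none was higher, where 5.19% of genes were called lower. The medians were -0.39 for nuclear and -0.40 for mt- members. Cox7a1 had 7.25, 3.23 and 3.09 CPM in FZD6 agonist 1 to 3, against 9.22, 8.50 and 9.11 CPM in WNT, and its log2 fold change over the 14 libraries was -1.51 ± 0.193 (SE; edgeR adjusted p = 0.0001). All 3 FZD6 agonist libraries were below WNT, and the highest was the one that stands apart. Cox7a2 changed by -0.69, Ndufa1 by -0.63 and Atp5g1 by -0.83. Over 18 libraries 8 of these 64 members had the other sign, Atp5g1 among them at 0.15. With all 18 libraries edgeR gave 0 calls and no member below an unadjusted p of 0.05, where 3.67% of genes were. DESeq2 called 0 members and 0.364% of genes, and voom with quality weights 73 members and 22.3% of genes. In the fit on these 6 libraries edgeR also called 0 members, where 0.0592% of genes were called.

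The 4 mt- members lower in FZD6 agonist than in WNT were the complex I subunits mt-Nd4, mt-Nd5 and mt-Nd6 and the complex III subunit mt-Cytb. The gene mt-Nd5 had 252, 236 and 236 CPM in FZD6 agonist, against 407, 305 and 306 CPM in WNT, without overlap, and a log2 fold change of -0.53 ± 0.105 (SE; edgeR adjusted p = 0.0039, 14 libraries). The gene mt-Nd6, the only subunit encoded on the other strand of mitochondrial DNA, changed by -0.65 ± 0.123 (SE; adjusted p = 0.0034). The same 4 were lower than in 48 h withdrawal, where mt-Nd5 had 365, 366 and 407 CPM. There mt-Nd5 changed by -0.68 ± 0.106 (SE; adjusted p = 0.0006), mt-Nd4 by -0.67 and mt-Cytb by -0.61. In that comparison 26 nuclear members were also lower in the 14-library fit and none higher, where 4.73% of genes were called lower, with medians of -0.23 for nuclear and -0.51 for mt- members. Over 18 libraries 3 of these 30 had the other sign. The 18-library fit called 0 members there, with 1 member and 4.04% of genes below an unadjusted p of 0.05. DESeq2 called 0 members and 0.394% of genes, and voom with quality weights 41 members and 22.5% of genes. The fit on the 6 libraries called 0 members and 0.199% of genes. With all 18 libraries 7 of 11 mt- members were lower in FZD6 agonist without overlap against WNT and 7 against 48 h withdrawal, while 11.5% and 12.4% of genes were.

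Set directly against each other, the 2 agonists differed in no member past the threshold. In the 14-library fit, FZD5 agonist over FZD6 agonist gave a nuclear median of -0.05 with 0 of 90 members at an unadjusted p under 0.05. The mt- median was 0.54, with 0 called and 7 of 11 at an unadjusted p under 0.05, where 0.00574% of genes were called and 3.06% had such a p. With all 18 libraries 0 members were called and 0 had an unadjusted p under 0.05 in edgeR, where 0.994% of genes did. DESeq2 called 0 members and 0% of genes, and voom with quality weights 1 member and 0.0121% of genes. The CPM of 8 mt- members were higher in FZD5 agonist without overlap, which 4.95% of genes were. They included mt-Cytb, with 2739, 2593 and 3032 CPM in FZD5 agonist, against 1791, 1764 and 1975 CPM in FZD6 agonist.

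**Figure D3:**
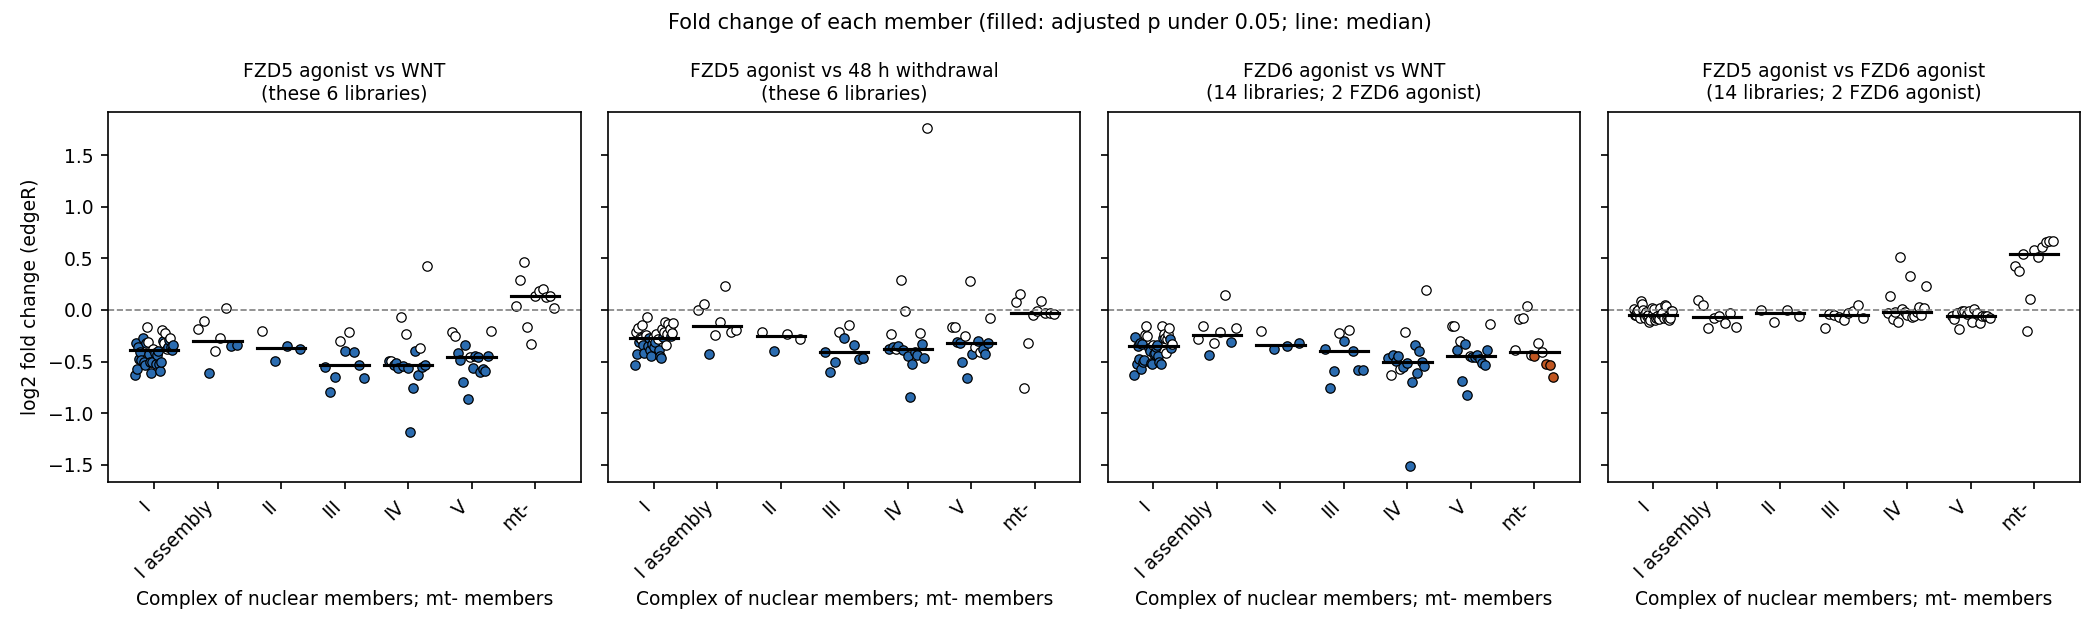
Log2 fold change of each member (edgeR) by complex for nuclear members and for mt- members, in FZD5 agonist against WNT and against 48 h withdrawal (6 libraries each) and, in the 14-library fit, in FZD6 agonist against WNT and FZD5 agonist against FZD6 agonist. Filled points have an adjusted p under 0.05 and lines are medians. Nuclear medians lie below 0 in all complexes of the first 3 panels, and the mt- median against WNT is 0.14 in FZD5 agonist and -0.40 in FZD6 agonist.

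Summed marker lists of other cell types differed between these groups, though few genes carried the sums. A list of 6 haematopoietic markers summed to 982 to 1145 CPM in FZD5 agonist and 1286 to 6164 CPM in FZD6 agonist, against 233 to 413 CPM in WNT and 242 to 425 CPM in 48 h withdrawal. Of its genes 2 exceeded 1 CPM, Lyz1, whose reads could be split with the near-identical Lyz2, and Cd68, while the defining leukocyte gene Ptprc was at 0 in 15 libraries and at most 0.0729 CPM, and Marco was at 0 in all 18. A list of club and secretory markers, led by Cyp2f2 and Hp, summed to 195 to 414 CPM in FZD5 agonist and 214 to 1334 CPM in FZD6 agonist, against 952 to 1182 CPM in WNT and 1080 to 1193 CPM in 48 h withdrawal. Over the 14 libraries Muc5b reached 27.9 CPM, Scgb3a1 1.13, Scgb1a1 0.947, Scgb3a2 0.286, Bpifa1 0.111 and Reg3g 0. The upper ends of both FZD6 agonist ranges came from FZD6 agonist 1, which stands apart. FZD6 agonist 2 and 3 had 1490 and 1286 CPM of haematopoietic and 274 and 214 CPM of club and secretory markers. Alveolar type 1 markers summed to 7752 to 10015 CPM in FZD5 agonist and 8319 to 8772 CPM in FZD6 agonist. The same list summed to 9396 to 9710 CPM in WNT and 9698 to 10595 CPM in 48 h withdrawal. FZD6 agonist thus lay below both, while FZD5 agonist overlapped with both. Whether such cells were present, and what part they had in the nuclear members' change, was not tested.

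Gene width also moved with the change. In FZD5 agonist against WNT, fitted on the 6 libraries, protein-coding genes up to 600 bases wide had a median log2 fold change of -0.31, and the median was -0.21 from 600 to 1000 bases, -0.12 to 1500, -0.04 to 2500 and 0.07 above. The nuclear members in the same classes had medians of -0.55, -0.45, -0.42, -0.34 and -0.35. They were thus lower than all protein-coding genes in each class, and the short members were lower than the wide ones. Against 48 h withdrawal the class medians of all genes ran from -0.18 to 0.03 and those of the members from -0.40 to -0.24. With a width trend taken out of each library, a step added once the data had been seen, 57 members were called against WNT and 40 against 48 h withdrawal, all lower, where 6.03% of genes were called lower in each.

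**Figure D4:**
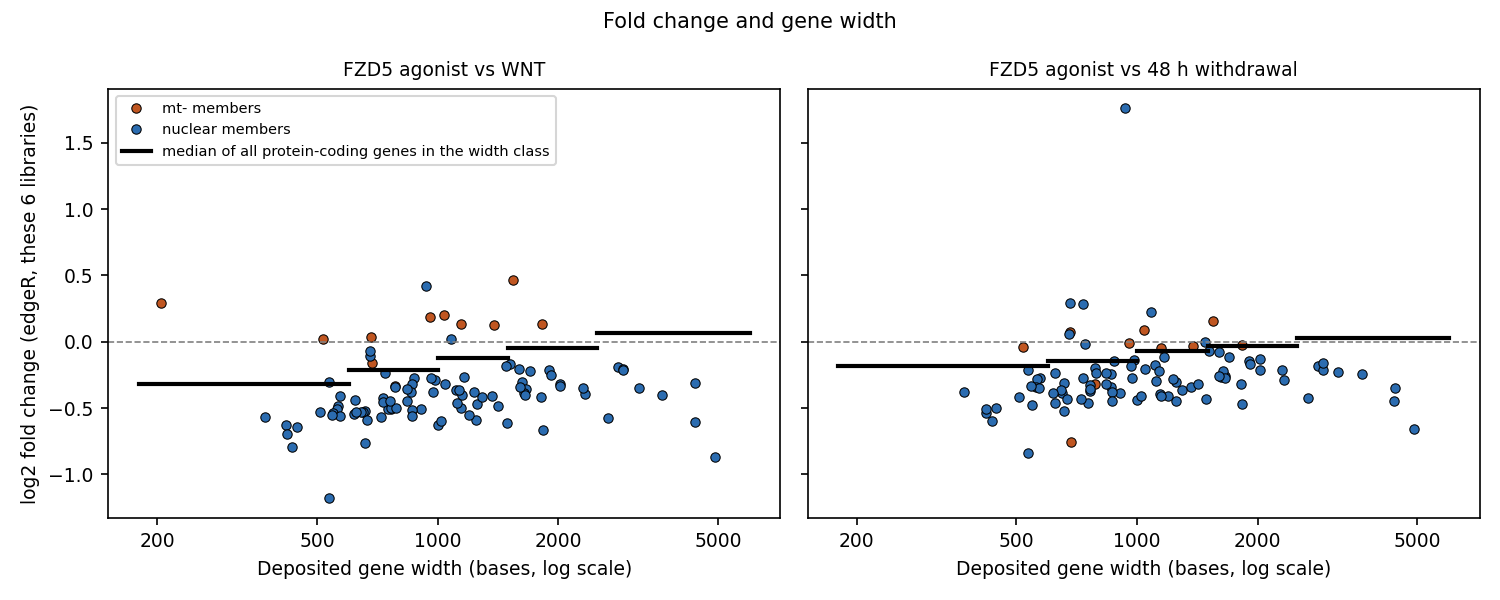
Log2 fold change of members (edgeR, 6 libraries) against deposited gene width in bases, for FZD5 agonist against WNT and against 48 h withdrawal. Points are members, with mt- and nuclear members in different colours, and black lines are medians of all protein-coding genes by width class. Most nuclear members lie below the line of their class.

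In the comparisons with CHIR, 2 members passed the test over 18 libraries. One of them was called in 48 h withdrawal, where 2.59% of genes were called, and both in WNT, where 1.92% were. Ndufaf6, a complex I assembly factor, had 16.0, 10.9 and 11.8 CPM in WNT and 9.96, 10.97 and 12.55 CPM in 48 h withdrawal, against 43.8, 21.4 and 23.8 CPM in CHIR. Its log2 fold change was -1.41 ± 0.283 in 48 h withdrawal (SE; edgeR adjusted p = 0.0161), where 1.49% of genes were called lower. In WNT it was -1.20 ± 0.281 (SE; adjusted p = 0.0406), where 1.05% of genes were called lower. Every CHIR library was above every WNT and 48 h withdrawal library. The call in 48 h withdrawal was lost without CHIR 1 or any 1 of the 48 h libraries, and the call in WNT without CHIR 1 or any 1 of the WNT libraries. Against CHIR 2 alone, in the 14-library fit, the log2 fold changes were -0.92 in 48 h withdrawal and -0.70 in WNT (adjusted p = 0.0015 and 0.0106). The fits on the 6 libraries of each pair called 0 members, where 0.851% of genes were called in 48 h withdrawal and 0.711% in WNT. Both comparisons share the CHIR libraries.

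Cox4i2 rose in WNT against CHIR, with 3.31, 3.36 and 2.36 CPM in WNT, against 0.930, 0.904 and 0.305 CPM in CHIR. Its log2 fold change was 2.07 ± 0.507 (SE; edgeR adjusted p = 0.0482), where 0.873% of genes were called higher, and the groups did not overlap. The call was lost whenever any 1 of the 6 libraries was left out. In 48 h withdrawal Cox4i2 had 2.31, 2.08 and 3.15 CPM and a log2 fold change of 1.81 that did not pass (adjusted p = 0.0687). Its partner isoform Cox4i1 had 636, 548 and 611 CPM in WNT, against 778, 479 and 778 CPM in CHIR, and overlapped.

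Cox6a2 was highest in the libraries that stand apart, with 37.3 CPM in 24 h withdrawal 2, 22.0 in CHIR 3, 13.04 in FZD6 agonist 1 and 5.94 in CHIR 1. Among the others it had 4.34 CPM in CHIR 2 and 2.89 and 2.96 CPM in the other 24 h withdrawal libraries. It had 0.356 to 1.30 CPM in FZD5 agonist, WNT, 48 h withdrawal and FZD6 agonist 2 and 3. Over 18 libraries its log2 fold change in 48 h withdrawal against CHIR was -3.94 ± 1.25 (SE; edgeR adjusted p = 0.112). In the 14-library fit it was -2.61 ± 0.392 against CHIR (SE; adjusted p = 0.0001) and -2.05 ± 0.346 against 24 h withdrawal (SE; adjusted p = 0.0008). Cox7a1 was also highest in 24 h withdrawal 2, at 67.0 CPM, against 6.21 and 4.53 CPM in the other libraries of that group.

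**Figure D5:**
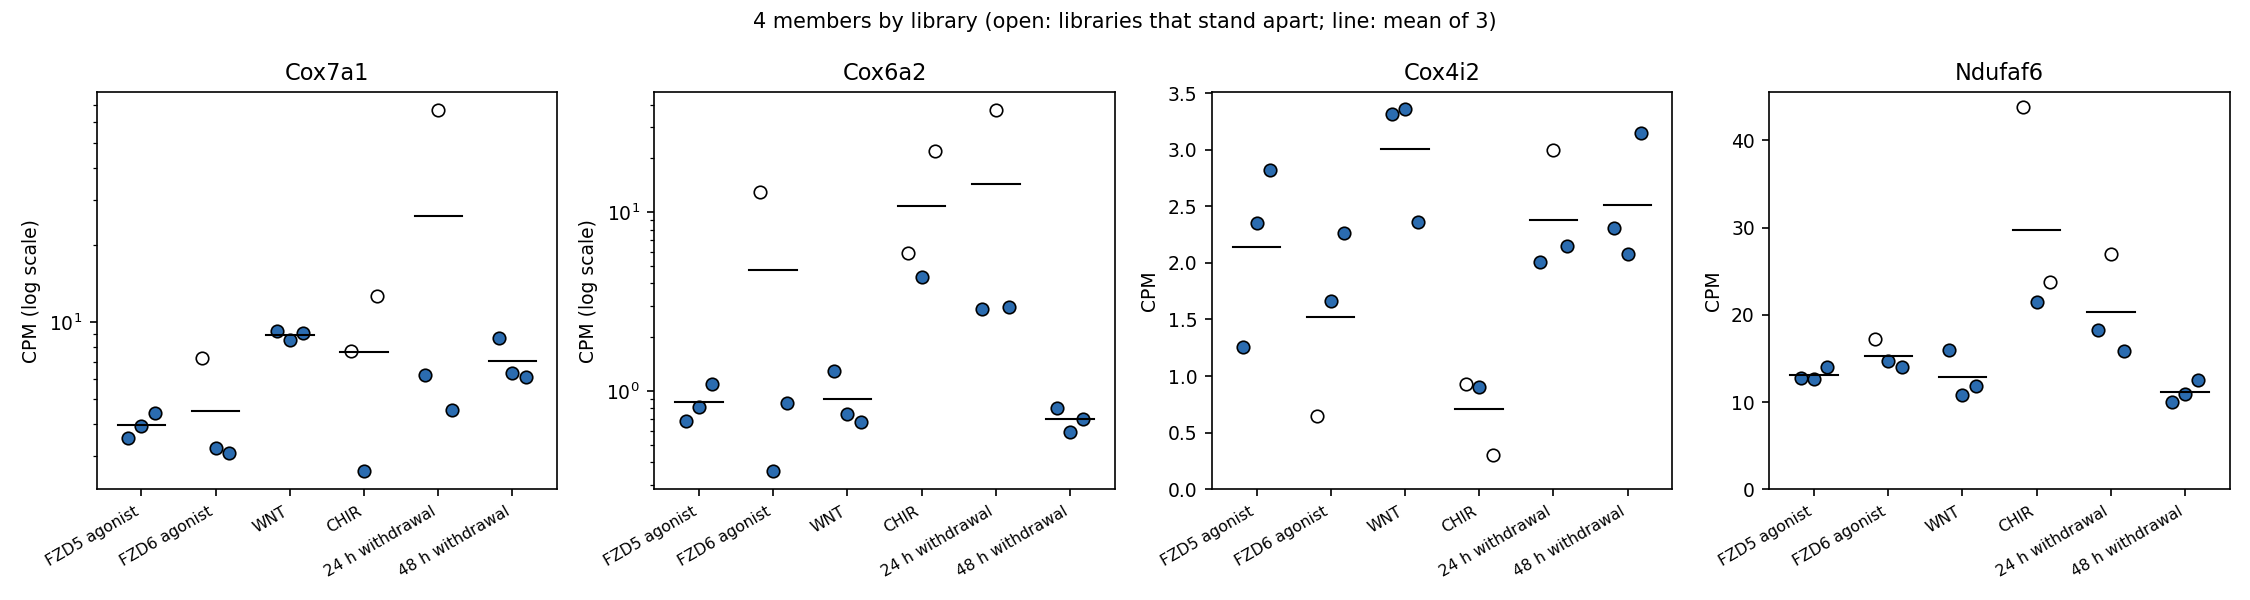
CPM per library of Cox7a1 and Cox6a2 (log axes) and of Cox4i2 and Ndufaf6 (linear axes from 0), by group. Open points are the 4 libraries that stand apart and lines are means of 3. Cox7a1 is lower in FZD5 agonist (3.52 to 4.41 CPM) than in WNT (8.50 to 9.22 CPM), and Ndufaf6 is highest in CHIR (21.4 to 43.8 CPM).

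Along the withdrawal of CHIR99201 the nuclear members as a group depended on which libraries were used. Over 18 libraries their median log2 fold change was 0.24 at 24 h and -0.38 at 48 h against CHIR. Without the libraries that stand apart, the nuclear median at 48 h against CHIR 2 was 0.14. In that fit Ndufa1 rose by 0.78, Cox7a1 by 1.45, Ndufaf3 by 0.61 and Ndufa3 by 0.55, while Cox6a2, Ndufaf6, Ndufaf4, Ndufaf5 and Ndufaf1 fell. Of the 23 members called there 11 had the other sign over 18 libraries, among them Ndufa1 (-0.14), Ndufa3 (-0.18) and Cox7a1 (-0.12). The mt- members had medians of 2.13 at 24 h and 0.35 at 48 h against CHIR over 18 libraries, and the 24 h value rests on 24 h withdrawal 2. At 24 h, edgeR over 18 libraries gave 0 calls, with 6 nuclear and 10 mt- members and 2809 of 16497 genes below an unadjusted p of 0.05. DESeq2 called 1 member and 2.93% of genes. In the 14-library fit Ndufaf3 and Cox7a1 rose at 24 h against CHIR 2 (0.62 and 1.04), where 2.75% of genes were called higher.

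Between 24 h and 48 h, in the 14-library fit, 4 mt- members rose. They were mt-Nd5, with a log2 fold change of 0.58 ± 0.105 (SE; edgeR adjusted p = 0.0014), mt-Nd4 (0.65), mt-Nd6 (0.51) and mt-Cytb (0.49). The gene mt-Nd5 had 365, 366 and 407 CPM at 48 h, against 244 and 267 CPM in the 24 h libraries kept. The nuclear members Ndufa1 (0.47) and Cox7a2l (0.33) also rose, where 8.49% of genes were called higher. In the other direction Cox6a2, Ndufa9, Ndufaf6, Atp5b, Ndufaf5 and Ndufa12 fell, where 9.50% of genes were called lower. With 24 h withdrawal 2, where mt-Nd5 had 2717 CPM, the directions turned round for 6 of these 12 members. Over 18 libraries the log2 fold changes were -1.50 for mt-Nd5, -2.53 for mt-Nd4, -3.00 for mt-Nd6, -1.22 for mt-Cytb, -0.43 for Ndufa1 and -0.12 for Cox7a2l. All 11 mt- members had negative values in that fit. It gave 0 calls between these times, with 33 nuclear and 9 mt- members and 2973 of 16497 genes below an unadjusted p of 0.05. DESeq2 called 1 member and 3.53% of genes.

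The agonists and WNT against CHIR also turned on CHIR 1 and CHIR 3. Over 18 libraries the nuclear medians were -0.66 in FZD5 agonist, -0.51 in FZD6 agonist and -0.28 in WNT, against the same 3 CHIR libraries. In FZD5 and FZD6 agonist edgeR gave 0 calls, with 44 and 16 nuclear members below an unadjusted p of 0.05, where 13.5% and 6.47% of genes were. DESeq2 called 11 members and 4.02% of genes in FZD5 agonist, and 0 members and 0.418% of genes in FZD6 agonist. Against CHIR 2 alone the nuclear median was -0.14 in FZD5 agonist and 0.27 in WNT. There 12 nuclear members were lower in FZD5 agonist, where 5.58% of genes were called lower, and 34 were higher in WNT, where 13.6% of genes were called higher. In WNT 2 nuclear members were lower, Cox6a2 and Ndufaf6, where 2266 of 17433 genes were. Of the 38 members called in WNT in that fit 21 had the other sign over 18 libraries. In FZD5 agonist 3 mt- members were higher, mt-Nd4, mt-Nd5 and mt-Nd6, where 8.00% of genes were. In FZD6 agonist 6 nuclear members were lower, where 3.01% of genes were, led by Cox6a2 and Atp5g1. Atp5g1 was also among the 12 in FZD5 agonist, with a log2 fold change of -0.95 ± 0.164 (SE; edgeR adjusted p = 0.0013).

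Promoters of nuclear members were searched for the letters of 2 factors known to control many respiratory chain genes. RefSeq promoters (GRCm38.p6, from 250 bases before to 50 after the gene start) were matched for 71 of 90 nuclear members. The NRF1 letters, GCGC, then AN, then GCGC without a gap, on either strand, occurred in 19 of 71 (26.8%), against 5.19% of 27025 genes with promoters of the same length. The GABPA letters CCGGAAG, on either strand, occurred in 17 of 71 (23.9%), against 9.93% of these genes, and no match of one overlapped a match of the other. A gene counted if any of its promoters matched. The 27025 genes were not limited to those expressed here, as the members are, so the shares are not like for like. A match of letters is a description and not a binding site. Of the 4 members with both, Atp5k, a small membrane subunit of the ATP synthase (chr5:108434350-108434649, minus strand), and Sdhd (chr9:50603800-50604099, minus strand) are shown, since they had the largest and the smallest fall of the 4 in FZD5 agonist against WNT. Capitals mark the letters found.
Atp5k: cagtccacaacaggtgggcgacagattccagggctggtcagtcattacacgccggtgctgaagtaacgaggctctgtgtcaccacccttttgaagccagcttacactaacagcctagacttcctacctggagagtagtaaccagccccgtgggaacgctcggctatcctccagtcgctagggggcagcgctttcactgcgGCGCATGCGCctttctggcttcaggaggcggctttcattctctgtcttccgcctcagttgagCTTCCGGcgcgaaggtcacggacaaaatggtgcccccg
Sdhd: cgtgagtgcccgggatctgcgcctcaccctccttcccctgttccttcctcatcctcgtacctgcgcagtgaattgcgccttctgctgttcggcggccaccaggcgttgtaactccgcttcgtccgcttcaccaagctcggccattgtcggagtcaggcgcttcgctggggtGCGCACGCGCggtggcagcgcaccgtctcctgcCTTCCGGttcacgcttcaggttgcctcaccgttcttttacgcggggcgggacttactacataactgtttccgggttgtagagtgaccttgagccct
Atp5k had 16.3, 15.7 and 17.2 CPM in FZD5 agonist, against 25.0, 22.8 and 25.0 CPM in WNT, a log2 fold change of -0.57 ± 0.0955 (SE; edgeR adjusted p = 0.0060, 6 libraries). Sdhd had 312, 278 and 334 CPM in FZD5 agonist, against 412, 377 and 408 CPM in WNT, a log2 fold change of -0.38 ± 0.0888 (SE; adjusted p = 0.0229). Of members with NRF1 letters 13 of 19 were called lower in that comparison (median -0.40), of those with GABPA letters 14 of 17 (median -0.50), and of those with neither 32 of 39 (median -0.47).

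Other genes of mitochondrial respiration were followed through 7 lists, again in FZD5 agonist against WNT on the 6 libraries, where 6.31% of genes were called lower and 6.75% higher, with a median of 0.01 over all genes. Of 49 assembly factors tested 10 fell and none rose, with a median of -0.24, among them Sdhaf4 (-0.64), which helps assemble complex II, and Cox14 (-0.50) and Cox20 (-0.51), which act in complex IV assembly. Of 17 genes of the citric acid cycle and pyruvate dehydrogenase 6 fell and none rose (median -0.26), including fumarase Fh1 (-0.51). Of 77 mitochondrial ribosome genes 11 fell and none rose (median -0.15), and of 15 genes of cytochrome c and coenzyme Q 2 fell, Coq9 (-0.45) and Coq8b (-0.35). Of 31 genes that copy and express mitochondrial DNA 4 rose and 1 fell (median 0.04). Mgme1 (0.48), a nuclease of mitochondrial DNA maintenance, and the DNA polymerase Polg (0.25) rose, and Hsd17b10, a subunit of mitochondrial RNase P, fell by 0.86 (edgeR adjusted p = 0.0009). Of 8 mitochondrial non-coding RNAs tested none was called.

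Regulators of mitochondrial biogenesis moved in both directions, with 3 of 14 higher and 2 lower, where 6.75% and 6.31% of genes were. The coactivator gene Ppargc1a had 33.9, 43.9 and 40.2 CPM in FZD5 agonist, against 51.1, 63.8 and 58.1 CPM in WNT, a log2 fold change of -0.56 ± 0.112 (SE; edgeR adjusted p = 0.0125). Its partner receptor Esrra had 41.8, 54.2 and 54.3 CPM in FZD5 agonist, against 75.7, 62.0 and 78.2 CPM in WNT, and changed by -0.53 (adjusted p = 0.0216). Both separated the groups without overlap. Gabpb2, which encodes a partner of GABPA, rose by 0.60, and Pprc1, a coactivator related to Ppargc1a, rose by 0.49. In FZD6 agonist against WNT, over the 14 libraries, Ppargc1a changed by -0.66 and Esrra by -0.59, both called, and FZD6 agonist 1 stood apart in both, with 97.6 and 138 CPM.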

How the data were processed

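RNA-seq was deposited for 18 libraries of cultured mouse lung cells, 3 in each of 6 groups. Per the labels' protocols, RNA was isolated with an RNeasy kit (RNAeasy in the labels) and 0.1 µg of total RNA entered a TruSeq Stranded Total RNA preparation. The authors' deposited tables give whole-number gene counts, not normalised, together with RPKM, which the authors scaled by a deposited gene width and a library total. Per the submitters' processing notes, reads were aligned with GSNAP to GRCm38. The sources used here do not give the annotation, counting tool, use of strand or versions, so overlapping genes such as mt-Atp8 and mt-Atp6 were not told apart. RPKM was not used for any value here.

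Identifiers were matched to GENCODE M21 symbols (52489, 99.7%). The members and the lists were chosen with earlier results of these data known. Counts were tested with edgeR 4.0.16 in R 4.3.3 (filterByExpr, TMM factors, robust quasi-likelihood fit, no covariates, 18 libraries in 1 fit) in 12 comparisons and 1 F test, with Benjamini-Hochberg adjustment over all genes tested. All 101 members passed the filter on low counts in that fit. SE is the log2 fold change over the square root of F. Alternatives were RLE or upper-quartile scaling, all genes kept, a replicate block, the 2 groups alone, the 14 libraries with a median correlation of at least 0.96 (log2 CPM with a prior count of 2), each library left out in turn, DESeq2 1.42.0, limma 3.58.1 voom with quality weights, a gene width trend removed (lowess span 0.3), and 24 h withdrawal as baseline. The 18-library edgeR fit was tested on simulated counts with known changes, in which all libraries had the same spread, unlike those here. The other fits were not tested in this way.

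Named genes were the mt- members, paired isoforms, Sdha to Sdhd, Cyc1, the extremes of each complex, up to 6 called members per direction with the smallest p, and up to 4 called genes per list. Atp5k and Sdhd promoters were picked after their values were seen. Counts within groups differed by more than sampling noise (a chi-square over genes divided by its degrees of freedom was 7.08 to 1118), so each library was 1 sample. Same-numbered libraries of different groups did not deviate together, so numbers were not used as pairs.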

Additional observations from a re-analysis of the deposited data

How the results depend on the processing

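The counts of called members depended on which libraries set the spread, and the cause was not tested beyond the fits listed. The counts in this section show only how far the calls moved between fits. Where the share of all genes called in the same fit is not given above, a count is no result about the members. With only the 2 groups fitted, calls were 65 in FZD5 agonist against WNT, 46 in FZD5 agonist against 48 h withdrawal, and 0 in WNT and in 48 h withdrawal against CHIR. Without the libraries that stand apart, calls were 75, 64 and 0 in FZD5 agonist against WNT, FZD6 agonist against WNT and FZD5 agonist against FZD6 agonist. They were 54 and 30 in FZD5 and FZD6 agonist against 48 h withdrawal, and 15, 6, 38, 2 and 23 in FZD5 agonist, FZD6 agonist, WNT, 24 h and 48 h withdrawal against CHIR. They were 12 in 48 h against 24 h withdrawal and 79 over the 6 groups. In that fit the nuclear medians moved to -0.14 in FZD5 agonist, 0.27 in WNT and 0.14 in 48 h withdrawal against CHIR, and to -0.06 (-0.0575) in 48 h against 24 h withdrawal, and the log2 ratio at 24 h against CHIR to -0.22.

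DESeq2 called 11, 1 and 6 members in FZD5 agonist, 24 h and 48 h withdrawal against CHIR, 1 in 48 h against 24 h withdrawal and 9 over the 6 groups. Voom with quality weights called 71 and 73 in FZD5 and FZD6 agonist against WNT, 42 and 41 in the same against 48 h withdrawal, 1 in FZD5 agonist against FZD6 agonist, 1, 1 and 2 in FZD5 agonist, FZD6 agonist and 48 h withdrawal against CHIR, 11 in 48 h against 24 h withdrawal and 77 over the 6 groups. Its nuclear medians moved to -0.02 (-0.0179) in FZD5 agonist against FZD6 agonist and to -0.09 (-0.0860) in 48 h against 24 h withdrawal.

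Removing the width trend, added after the data were seen, gave 2 calls in 48 h withdrawal against CHIR and 1 over the 6 groups. With only the 2 groups it gave 57 and 40 in FZD5 agonist against WNT and 48 h withdrawal, 2 in FZD6 agonist against 48 h withdrawal, and 0 in WNT and 48 h withdrawal against CHIR. Without the libraries that stand apart it gave 68 and 60 in FZD5 and FZD6 agonist against WNT, 55 and 42 in the same against 48 h withdrawal, 1 in FZD5 agonist against FZD6 agonist, 20, 7, 41, 2 and 32 in FZD5 agonist, FZD6 agonist, WNT, 24 h and 48 h withdrawal against CHIR, 18 in 48 h against 24 h withdrawal and 78 over the 6 groups. Its nuclear medians were then -0.10, -0.09 (-0.0852), 0.22 and 0.14 in FZD5 agonist, FZD6 agonist, WNT and 48 h withdrawal against CHIR, -0.02 (-0.0223) in FZD5 agonist against FZD6 agonist and -0.02 (-0.0152) in 48 h against 24 h withdrawal.

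No filter and upper-quartile factors left 0 calls in WNT against CHIR. The replicate block also gave 0 there and changed no other count of calls, and it is no pairing, since 4 of 45 same-number pairs correlated above 0.1, with a median of -0.02. With 24 h withdrawal as baseline, the nuclear medians were -0.97, -0.73 and -0.49 in FZD5 agonist, FZD6 agonist and WNT, and the log2 ratios of FZD5 agonist and WNT were 0.04 (0.0409) and -0.56. All these values include 24 h withdrawal 2, whose own log2 ratio was 0.45. The 24 h mean was -1.11 with that library and -1.90 without it, against -1.07 in FZD5 agonist and -1.68 in WNT. Without 24 h withdrawal 2 the WNT ratio was thus above that of 24 h withdrawal. The log2 ratio in 48 h against 24 h withdrawal was -0.24 over 18 libraries, -1.76 as a difference of fitted medians and 0.55 without 24 h withdrawal 2, with -0.67 to 0.55 when single libraries were left out.

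Leaving out each library in turn gave 0 to 6 calls in FZD5 agonist against CHIR (6 without CHIR 2), 0 to 1 in WNT against CHIR, 0 to 5 in 48 h withdrawal against CHIR (5 without CHIR 2), 0 to 10 in 48 h against 24 h withdrawal (10 without 24 h withdrawal 3) and 0 to 9 over the 6 groups (9 without 24 h withdrawal 3). The nuclear medians ran from -0.41 to 0.52 in 24 h withdrawal against CHIR and from -0.88 to -0.07 (-0.0668) in 48 h against 24 h withdrawal, at -0.41 and -0.07 without 24 h withdrawal 2. The 3 calls over 18 libraries changed sign under none of the 19 alternatives of each. Of the members called without the libraries that stand apart, 8 of 64 and 3 of 30 in FZD6 agonist against WNT and 48 h withdrawal, 21 of 38 and 11 of 23 in WNT and 48 h withdrawal against CHIR, and 6 of 12 in 48 h against 24 h withdrawal had the other sign over 18 libraries. None did in the remaining comparisons, or of those called with only the 2 groups. Cox4i2 in WNT kept its call in 7 of 19 alternatives (adjusted p 0.0009 to 0.227), Ndufaf6 in WNT in 10 of 19 (0.0020 to 0.211) and Ndufaf6 in 48 h withdrawal in 13 of 19 (0.0001 to 0.106), all by the tools named above. Over all 18 libraries mt-Co2 had 887 counts, mt-Co3 983 and mt-Atp8 322, which limits their precision.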
